A study of Rattus norvegicus with 9 samples.

Results

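The genes described here drive and restrain cell division, and they were measured in rat brain after white matter of the caudal cerebellar peduncle, a tract of the hindbrain, had been demyelinated. The set was listed by name and fell into 4 roles: DNA replication, mitosis, G1 cyclins and kinases, and inhibitors of cyclin-dependent kinases (CDKs). Of 58 listed genes 46 had a named probe in the authors' normalized table, of 7574 named genes in all, and each was represented by its brightest probe. They were 16 of 18 replication genes, 23 of 30 mitotic genes, 4 of 6 G1 cyclins and kinases, and 3 of 4 inhibitors. The 12 listed genes without a named probe, not analysed here, were Gins2, Rrm1, Birc5, Ccnb1, Kif4a, Mki67, Nek2, Racgap1, Top2a, Ccnd3, Cdk2 and Cdkn1a. Another 2873 probes of that table are unnamed here.

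All samples came from Sprague Dawley rats that were 12 weeks old when the lesion was made with 0.1% ethidium bromide, a toxin that kills oligodendrocytes and astrocytes where it is injected. Lesions were cut from frozen brain by laser capture at 5, 14 or 28 days post lesion (dpl). Their RNA was hybridised to Illumina arrays, with 3 arrays per time point called biological replicates. The labels name no genotype or further treatment, no unlesioned tissue is analysed here, and no label ties an array to an animal of its own. P-values therefore measure the spread between these arrays, which may be technical. A captured lesion holds many cell types, and a fall in a gene through fewer dividing cells cannot be told apart from a fall through less of its RNA per cell.

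As background, a dividing cell passes from G1 into S phase, copies its DNA, and then separates the copies in mitosis. D-type cyclins with Cdk4 start the passage through G1, and E2F transcription factors then switch on the enzymes of replication. Cyclins A and B with Cdk1 take the cell into mitosis, and many mitotic genes are held down in resting cells by the DREAM complex, which contacts promoter elements named CHR and acts beside CCAAT boxes, the sites of the factor NF-Y. In a demyelinated lesion, oligodendrocyte progenitors, microglia and other cells are known to divide.

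Values are log2 values of the authors' table with n = 3 arrays at each time, and differences are log2 differences with their standard error (SE) from limma. Adjusted p-values come from the same limma fit after Benjamini-Hochberg correction across all 10552 probes. A gene was called at an adjusted p under 0.05. The level of undetected targets was estimated at 7.25 to 7.31, and a fold against a time point whose arrays all lie below 7.31 is given as a bound ("at least"). Against raw signals the table's scale was compressed at low levels (slope 0.61 at a value of 7.5, 0.96 at 10), so differences of dim genes understate the change. The array 5 dpl replicate 1 stood apart: the mean level of 6 neuron genes on it was 1.74 relative to all arrays, against -0.64 and -0.32 on the other arrays of that time. Markers of the tissue were present, and 7 of 7 myelin and oligodendrocyte genes lay above the estimated background on every 28 dpl array. The astrocyte gene Aqp4 lay below it on all 9 arrays, and Mag did so at 5 dpl.

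The promoters of the members are shown first, since they set the replication and mitotic genes side by side by a feature that owes nothing to the arrays. RefSeq windows of 300 bases (assembly GRCr8), from 250 bases before to 50 after the start, were matched for 36 of the 46 members. They were searched on both strands for TTTGAA (the core of the CHR), CCAAT, and the E2F words TTTCCCGC, TTTGGCGC, TTTCGCGC and TTTGCCGC. E2F words occurred in 9 of 13 replication windows and 1 of 19 mitotic windows, beside 2.82% of the 19005 windows of protein-coding genes. The CHR core occurred in 1 of 13 replication windows and 13 of 19 mitotic windows, beside 17.0% of all windows. CCAAT occurred in 9 of 13 and 14 of 19, beside 38.4% of all, and 11 mitotic windows held both CHR and CCAAT (0 of 13 replication windows, 7.04% of all). Of the members' overlapping matches only 1 pair joined different motifs, an E2F word and a CCAAT in the Mcm7 window, and adjacent E2F words on opposite strands overlapped in 4 replication windows (Gins1, Mcm2, Mcm5 and Mcm6). A match is a stretch of letters and not a measured binding site. The windows of the 2 replication and 4 mitotic members with the largest falls from 14 to 28 dpl, among those with an entry, are printed with matches in capitals. Their positions are chr3:160184670-160184969 on the plus strand for Gins1, chr13:42404303-42404602 on the minus strand for Mcm6, chr20:19265043-19265342 on the plus strand for Cdk1, chr8:79981609-79981908 on the minus strand for Ccnb2, chr1:143659231-143659530 on the plus strand for Prc1 and chr1:244536617-244536916 on the plus strand for Kif11.
Gins1: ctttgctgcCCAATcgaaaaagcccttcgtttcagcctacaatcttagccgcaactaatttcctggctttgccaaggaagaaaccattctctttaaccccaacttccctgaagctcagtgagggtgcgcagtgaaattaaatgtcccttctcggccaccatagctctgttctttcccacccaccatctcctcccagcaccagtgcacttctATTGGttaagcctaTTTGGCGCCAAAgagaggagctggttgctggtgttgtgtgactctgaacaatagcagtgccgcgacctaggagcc
Mcm6: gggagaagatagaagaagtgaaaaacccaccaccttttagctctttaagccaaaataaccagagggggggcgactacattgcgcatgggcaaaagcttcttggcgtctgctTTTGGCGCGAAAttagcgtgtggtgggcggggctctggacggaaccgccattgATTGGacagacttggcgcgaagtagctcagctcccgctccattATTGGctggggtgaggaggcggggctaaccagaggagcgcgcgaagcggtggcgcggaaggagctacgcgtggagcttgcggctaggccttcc
Cdk1: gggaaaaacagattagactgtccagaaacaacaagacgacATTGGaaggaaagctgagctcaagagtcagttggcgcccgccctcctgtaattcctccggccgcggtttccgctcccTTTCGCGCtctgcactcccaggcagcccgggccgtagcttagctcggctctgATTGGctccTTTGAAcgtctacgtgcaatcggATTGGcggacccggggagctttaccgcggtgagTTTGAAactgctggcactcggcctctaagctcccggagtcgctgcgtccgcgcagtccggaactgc
Ccnb2: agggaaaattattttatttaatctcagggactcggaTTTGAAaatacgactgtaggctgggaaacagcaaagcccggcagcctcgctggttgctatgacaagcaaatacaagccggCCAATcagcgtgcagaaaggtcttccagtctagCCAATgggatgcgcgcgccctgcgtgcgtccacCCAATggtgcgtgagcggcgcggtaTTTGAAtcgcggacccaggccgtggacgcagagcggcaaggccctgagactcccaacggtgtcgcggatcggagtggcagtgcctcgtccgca
Prc1: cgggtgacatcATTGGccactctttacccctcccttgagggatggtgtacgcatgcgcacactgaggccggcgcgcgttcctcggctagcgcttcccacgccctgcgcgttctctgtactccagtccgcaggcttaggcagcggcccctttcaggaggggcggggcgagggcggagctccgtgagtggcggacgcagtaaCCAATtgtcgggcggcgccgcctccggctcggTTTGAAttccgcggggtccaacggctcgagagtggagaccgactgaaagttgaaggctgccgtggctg
Kif11: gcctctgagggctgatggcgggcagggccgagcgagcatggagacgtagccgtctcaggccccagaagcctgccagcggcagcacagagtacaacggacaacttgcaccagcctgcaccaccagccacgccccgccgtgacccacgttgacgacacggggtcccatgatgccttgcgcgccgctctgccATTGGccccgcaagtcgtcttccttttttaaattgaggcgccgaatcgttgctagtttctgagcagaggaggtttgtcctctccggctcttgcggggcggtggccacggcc
The Gins1 and Mcm6 windows each held 2 CCAAT and 2 overlapping E2F words. Cdk1 held 2 CHR, 3 CCAAT and 1 E2F word, Ccnb2 held 2 CHR and 3 CCAAT, Prc1 held 1 CHR and 2 CCAAT, and Kif11 held 1 CCAAT alone.

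**Figure D1:**
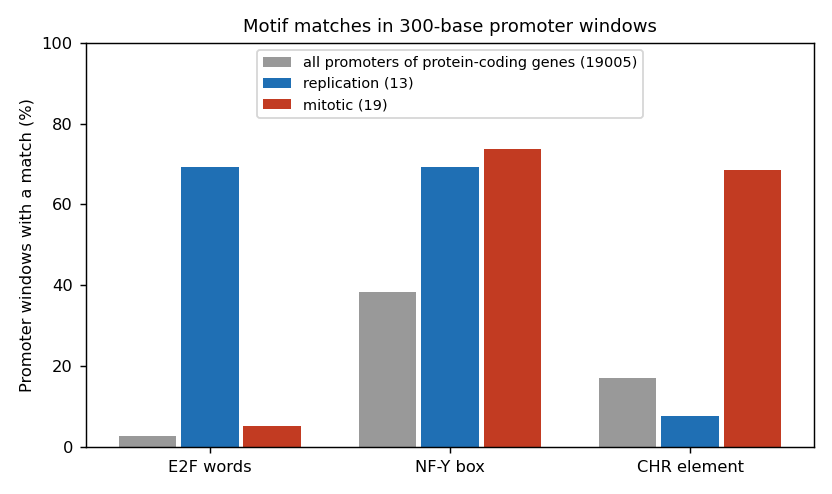
Share of promoter windows (percent, y axis) with at least 1 match to each motif (x axis; NF-Y box is CCAAT), for all protein-coding genes, replication members and mitotic members. E2F words mark the replication bars (69.2%) and the CHR element the mitotic bars (68.4%), while the NF-Y box is present in both.

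Mitotic genes fell steeply from 14 to 28 dpl. Of 23 measured members 22 fell and 0 rose, beside 7.48% of all probes that fell and 7.49% that rose, and their median difference was -1.15, against -0.01 over all probes. Of the 7574 named genes 617 were called lower, and 7 of the 10 largest falls among those were mitotic members. The members were listed with earlier results of these data known, so these counts describe the set and do not test it. On all 23 genes every 28 dpl array lay below every 14 dpl array, as it did for 20.2% of all probes.

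Cdk1, the kinase that brings cells into mitosis, read 10.48, 11.13 and 10.72 at 5 dpl, 10.93, 10.83 and 11.33 at 14 dpl, and 9.17, 8.80 and 8.88 at 28 dpl. The 28 dpl arrays lay far below the other 6, while those of 5 and 14 dpl overlapped. From 14 to 28 dpl Cdk1 fell 4.23-fold, a difference of -2.08 (SE 0.19, adjusted p = 0.000584) and the largest fall among the named genes called lower. Its partner cyclin B2 (Ccnb2) read 10.55, 11.20 and 10.93 at 5 dpl, 11.19, 10.91 and 11.50 at 14 dpl, and 9.37, 9.20 and 8.94 at 28 dpl. The same order held, with 28 dpl below all else, and the fall from 14 dpl was 4.08-fold, with a difference of -2.03 (SE 0.20, adjusted p = 0.000701). Cks2, a small subunit that binds CDKs, read 10.40, 10.93 and 10.55 at 5 dpl, 10.45, 10.18 and 10.50 at 14 dpl, and 8.84, 8.79 and 8.55 at 28 dpl. Its 28 dpl values were also the lowest without overlap, and the difference was -1.65 (SE 0.15, adjusted p = 0.000584). Cdkn3, a phosphatase that acts on CDKs, read 9.18, 9.73 and 9.28 at 5 dpl, 9.60, 9.70 and 10.10 at 14 dpl, and 8.29, 7.98 and 8.08 at 28 dpl. The arrays of 14 and 28 dpl were well apart, with a difference of -1.68 (SE 0.17, adjusted p = 0.000898).

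Genes of the spindle and of cell separation fell alongside. Prc1, which bundles microtubules of the central spindle, read 10.44, 10.75 and 10.67 at 5 dpl, 11.08, 11.14 and 11.45 at 14 dpl, and 9.59, 9.19 and 9.02 at 28 dpl. Prc1 was highest on the 14 dpl arrays and lowest on the 28 dpl arrays, with no overlap between any time points. From 14 to 28 dpl it fell by 3.87-fold, a difference of -1.95 (SE 0.16, adjusted p = 0.000428). Kif11, the motor that pushes spindle poles apart, read 9.49, 9.91 and 9.65 at 5 dpl, 9.85, 9.89 and 10.30 at 14 dpl, and 8.44, 8.24 and 8.01 at 28 dpl. Its 28 dpl arrays lay below all others, and the difference was -1.78 (SE 0.16, adjusted p = 0.00058). The other mitotic members that fell did so by less, and every one had 28 dpl arrays below its 14 dpl arrays.

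Other motors and spindle genes followed. Kif20a, a motor of the central spindle, had a difference of -1.48 (SE 0.14, adjusted p = 0.000649). Tpx2, which helps microtubules to form around chromosomes, had a difference of -1.31 (SE 0.12, adjusted p = 0.000649). Kif23, another motor of the central spindle, differed by -1.18 (SE 0.13, adjusted p = 0.00123) and Kif22, which moves chromosomes, by -0.86 (SE 0.14, adjusted p = 0.00558). The spindle checkpoint, which holds mitosis until chromosomes are attached, fell as well, and part of it dropped out of the measurable range. Its kinase Bub1 had a difference of -1.07 (SE 0.12, adjusted p = 0.00153). Bub1b fell at least 1.42-fold and Mad2l1 at least 1.25-fold, both to below the estimated background on all 28 dpl arrays. The genes that end mitosis followed. Cdc20, an activator of the ubiquitin ligase that ends mitosis, had a difference of -1.31 (SE 0.12, adjusted p = 0.000649). Ube2c, the ubiquitin-conjugating enzyme of that ligase, had a difference of -1.15 (SE 0.18, adjusted p = 0.00501).

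Kinases that act beside Cdk1 fell as well, Aurkb by 2.95-fold (a difference of -1.56, SE 0.21, adjusted p = 0.00277). Plk1 fell at least 1.62-fold to below the estimated background, and Aurka fell 1.41-fold. Cyclin A2 (Ccna2), which acts in S phase and early mitosis, fell 2.03-fold and stayed above that level on 1 of 3 arrays at 28 dpl. Cdca3, which helps to remove an inhibitor of mitosis, fell at least 1.48-fold. Nusap1, a spindle microtubule protein, and Ect2, which sets up the cleavage furrow, are dim genes, and their bounds were 1.1-fold and 1.07-fold. Kif2c, a motor that takes microtubules apart, was dim too and was the only mitotic member that did not pass, with a difference of -0.21 (SE 0.07, adjusted p = 0.0799). Its adjusted p passed in 4 of the 17 alternative settings that tested it. The call of Ect2 ended in 8 of 18 (highest adjusted p = 0.131), that of Nusap1 without 14 dpl replicate 3 or 28 dpl replicate 3 (0.0575 at most) and that of Aurka without 14 dpl replicate 1 (0.0504).

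**Figure D2:**
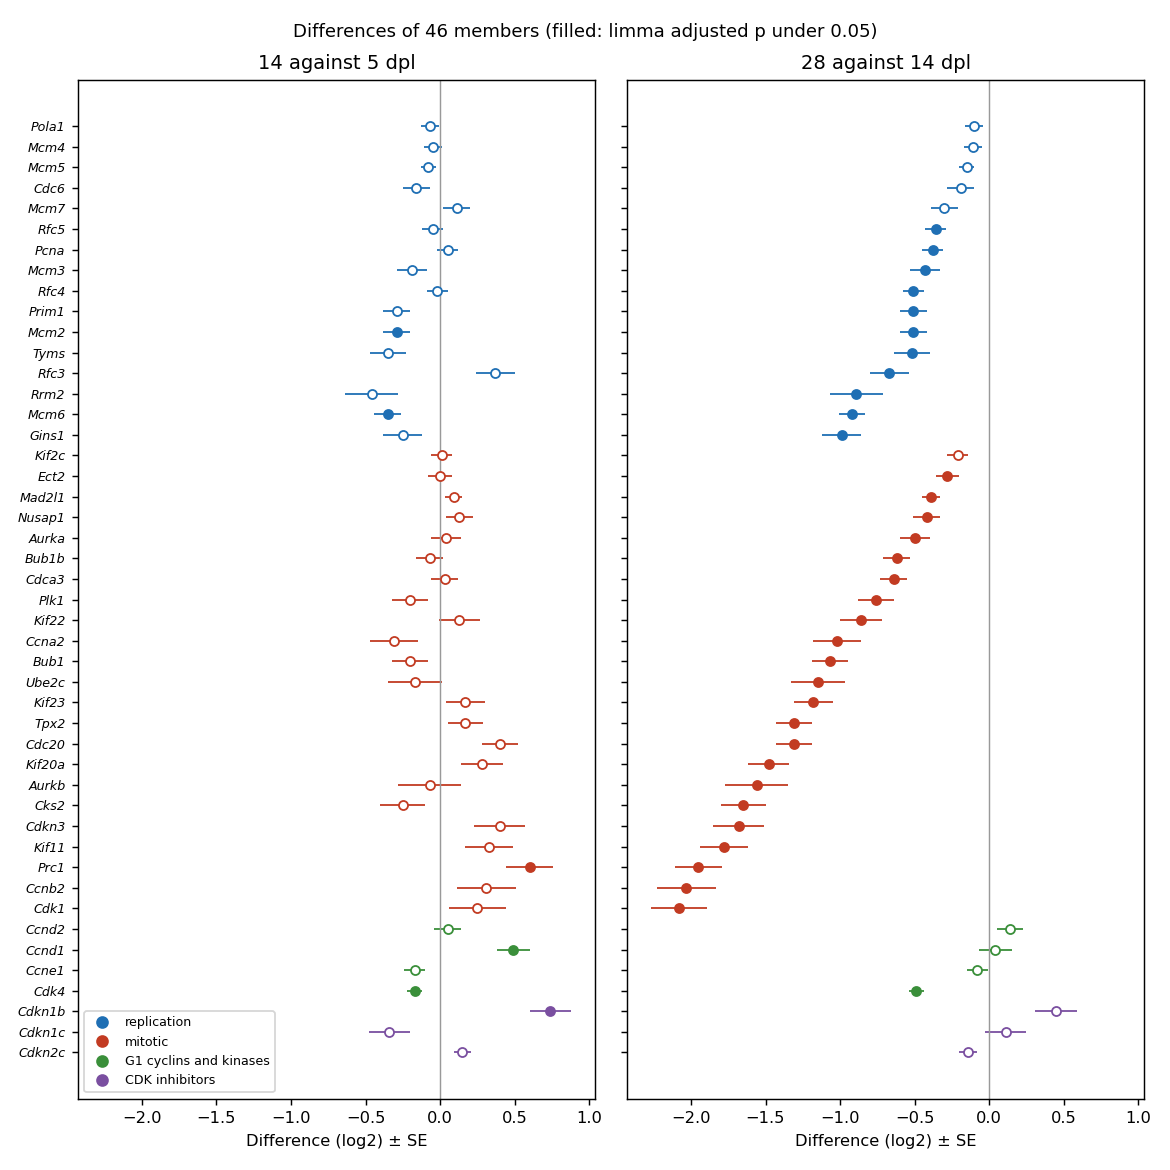
Difference in log2 value with its SE (x axis) for each of the 46 members (y axis), for 14 against 5 dpl (left) and 28 against 14 dpl (right); colours are roles and filled points have a limma adjusted p under 0.05. On the right 22 of 23 mitotic and 11 of 16 replication points are filled and below 0, and on the left few points are filled.

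Replication genes fell as well from 14 to 28 dpl, by less. Of 16 members 11 fell and 0 rose (7.48% and 7.49% of all probes), with a median difference of -0.47. The 28 dpl arrays lay below all 14 dpl arrays for 15 of the 16 genes, the exception being Pola1. Without 14 dpl replicate 3 only 7 fell, beside 4.92% of all probes. The difference between the replication and the mitotic list was not tested, since the lists were chosen with results in view. Restricting both lists to genes whose brightest time point averaged at least 9, a limit set after the values were seen, left medians of -0.51 for 7 replication genes and -1.65 for 11 mitotic genes. That limit used the compared values, so genes could enter through the time point where they were high, which favours falls. These medians therefore do not compare the lists at equal brightness.

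Gins1, a subunit of the GINS complex of the replicative helicase, read 8.78, 9.30 and 8.99 at 5 dpl, 8.89, 8.69 and 8.75 at 14 dpl, and 7.94, 7.72 and 7.71 at 28 dpl. Its 28 dpl arrays were the lowest, and those of 5 and 14 dpl overlapped. The difference from 14 to 28 dpl was -0.99 (SE 0.13, adjusted p = 0.0023), a 1.98-fold fall and the largest of the list. Mcm6, of the MCM ring that unwinds DNA, read 10.52, 10.72 and 10.74 at 5 dpl, 10.28, 10.20 and 10.47 at 14 dpl, and 9.51, 9.37 and 9.30 at 28 dpl. The 3 time points were separate and descended in order, and the later step was -0.92 (SE 0.09, adjusted p = 0.000898). Rrm2, the regulated subunit of ribonucleotide reductase, which makes deoxyribonucleotides, read 8.23, 9.01 and 8.87 at 5 dpl, 8.16, 8.14 and 8.45 at 14 dpl, and 7.43, 7.37 and 7.29 at 28 dpl. At 28 dpl its values were lowest and close to the estimated background, with a difference of -0.89 (SE 0.18, adjusted p = 0.0149). Tyms, thymidylate synthase, read 8.28, 8.75 and 8.57 at 5 dpl, 8.33, 8.06 and 8.16 at 14 dpl, and 7.73, 7.69 and 7.56 at 28 dpl. Its 28 dpl arrays lay below all others by a difference of -0.52 (SE 0.12, adjusted p = 0.0222). Mcm2, another subunit of the ring, read 8.47, 8.77 and 8.69 at 5 dpl, 8.37, 8.27 and 8.40 at 14 dpl, and 7.76, 7.83 and 7.92 at 28 dpl. As for Mcm6, the time points did not overlap, and the later difference was -0.51 (SE 0.09, adjusted p = 0.00605). Rfc3, of the clamp loader, read 10.46, 10.96 and 10.66 at 5 dpl, 10.93, 11.09 and 11.18 at 14 dpl, and 10.55, 10.31 and 10.35 at 28 dpl. The 28 dpl arrays lay below the 14 dpl arrays, while those of 5 dpl overlapped with both, and Rfc3 fell from 14 to 28 dpl by 1.59-fold (a difference of -0.67, SE 0.13, adjusted p = 0.011).

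The 5 other replication genes that fell had differences between -0.51 and -0.36. Pcna, the sliding clamp that keeps polymerases on DNA, had a difference of -0.38 (SE 0.07, adjusted p = 0.00845). Prim1, the primase that starts each new strand, had a difference of -0.51 (SE 0.09, adjusted p = 0.00882). The clamp loaders Rfc4 and Rfc5 differed by -0.51 (SE 0.07) and -0.36 (SE 0.07), and Mcm3 by -0.43 (SE 0.10). The MCM ring was therefore called unevenly, with Mcm2, Mcm3 and Mcm6 past the threshold and the other 3 subunits not. Mcm7 differed by -0.30 (SE 0.09, adjusted p = 0.0509), Mcm5 by -0.15 (SE 0.05, adjusted p = 0.0739) and Mcm4 by -0.11 (SE 0.06, adjusted p = 0.211). Cdc6, which loads the MCM ring, and Pola1, of DNA polymerase alpha, did not pass either, with differences of -0.19 (SE 0.09, adjusted p = 0.179) and -0.10 (SE 0.06, adjusted p = 0.287). Mcm4, Mcm5, Cdc6 and Pola1 lay below the estimated background on all 28 dpl arrays. Mcm7 was bright on every array and passed in 7 of 19 alternative settings. A second probe of Mcm5 had a difference of -0.14. The calls of Tyms and Rrm2 ended without 14 dpl replicate 3 or 28 dpl replicate 3 (that of Tyms also without 14 dpl replicate 1 or 28 dpl replicate 1), that of Rfc5 without 14 dpl replicate 3, and that of Mcm3 without any 1 array of 14 or 28 dpl except 14 dpl replicate 2, with highest adjusted p of 0.0811, 0.0557, 0.0516 and 0.0944.

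**Figure D3:**
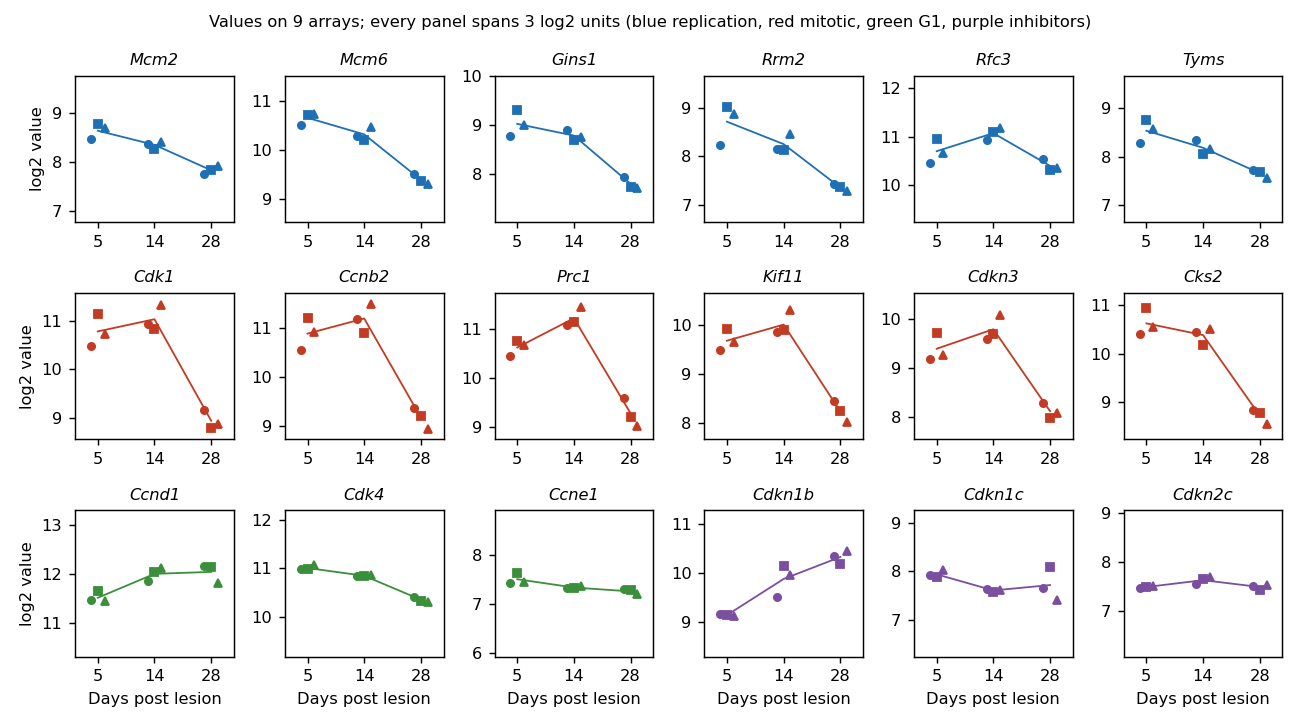
Values (log2, y axis) of 18 members on the 9 arrays by days post lesion (x axis); points are arrays (circle, square and triangle for replicates 1, 2 and 3), lines join the means, and every panel spans the same 3 log2 units. Means of blue replication genes step down at both intervals, except for Rfc3, which is higher at 14 than at 5 dpl. Of these only Mcm2 and Mcm6 were called lower at the earlier interval. Red mitotic genes drop between 14 and 28 dpl, and Ccnd1 and Cdkn1b are higher after 5 dpl.

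Between 5 and 14 dpl few members moved. Of 16 replication genes 2 fell and 0 rose, and of 23 mitotic genes 0 fell and 1 rose, beside 10.1% of all probes that fell and 10.7% that rose. These shares lay near or below the background. By limma at an unadjusted p under 0.05, 5 replication genes were lower and 1 higher, and 0 mitotic genes were lower and 3 higher. The share of all probes at this unadjusted level is not given, so these counts cannot be judged against a background. Differences lay below 0 for 13 of 16 replication genes and 8 of 23 mitotic genes, against 53.5% of all probes, with medians of -0.12 and 0.09.

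The replication genes that fell were Mcm6, by a difference of -0.35 (SE 0.09), and Mcm2, by -0.29 (SE 0.09), both with arrays that did not overlap. Prim1 (-0.29, SE 0.09, adjusted p = 0.056) and Tyms (-0.35, SE 0.12, adjusted p = 0.0728) did not pass. Neither did Rrm2 (-0.46, SE 0.18, adjusted p = 0.122) or Gins1 (-0.25, SE 0.13, adjusted p = 0.217), although Rrm2 had the lowest difference of the list. Rfc3 had the highest difference of the list, 0.37 (SE 0.13, adjusted p = 0.0745). The mitotic gene that rose was Prc1, by 1.52-fold (0.60, SE 0.16, adjusted p = 0.0283). Cdc20, Cdkn3, Kif11, Ccnb2 and Cdk1 did not pass, with differences of 0.40, 0.40, 0.33, 0.31 and 0.25, whereas Ccna2, Cks2, Bub1 and Plk1 had differences below 0 that did not pass (-0.31, -0.25, -0.20 and -0.20).

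These early calls depended on which arrays were used. Without 5 dpl replicate 1, on which neuron genes stood high, 6 replication genes fell in limma's test, while 12.8% of all probes fell and 11.6% rose. Rrm2, for deoxyribonucleotides, had a difference of -0.69 (adjusted p = 0.00265) and Tyms one of -0.48 (adjusted p = 0.00949). Mcm2 and Mcm6 had differences of -0.38 and -0.42 (adjusted p of 0.00712 and 0.0148). Prim1 and Gins1 passed narrowly, with differences of -0.34 and -0.37 (adjusted p of 0.0436 and 0.0488). The mitotic gene Ccna2 fell too (-0.47, adjusted p = 0.0337), and 0 mitotic genes rose. Without 5 dpl replicate 2, in contrast, 0 replication genes fell and Rfc3 rose, and 3 mitotic genes rose (Prc1, Cdc20 and Cdkn3), beside 7.04% of all probes that fell and 7.46% that rose. Leaving out 5 dpl replicate 3 or either of 14 dpl replicates 1 and 2 left 0 replication genes lower, and leaving out 14 dpl replicate 3 or either of 28 dpl replicates 1 and 2 left 1. Of the mitotic genes 0 rose in the absence of 5 dpl replicate 3 or of 14 dpl replicate 2 or 3, and 2 rose in the absence of 14 dpl replicate 1. Over these other arrays left out, from 5.85% to 10.1% of all probes fell and from 6.33% to 10.6% rose.

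Within a time point the members moved together from array to array. On 5 dpl replicate 1, 22 of 23 mitotic and 12 of 16 replication genes had the lowest value of the 3 arrays of that time, as did 44.9% of all probes. On 14 dpl replicate 3, 21 of 23 mitotic and 13 of 16 replication genes had the highest value, against 27.9% of all probes, and on 28 dpl replicate 1, 17 of 23 and 11 of 16 did, against 31.7%. The mean level of the mitotic list, each gene taken relative to its own mean over 9 arrays, was 0.10, 0.52 and 0.32 at 5 dpl, 0.36, 0.27 and 0.58 at 14 dpl, and -0.62, -0.76 and -0.79 at 28 dpl. The arrays of 5 and 14 dpl overlapped and those of 28 dpl stood well below. The replication list read 0.10, 0.38 and 0.25 at 5 dpl, 0.10, 0.06 and 0.18 at 14 dpl, and -0.30, -0.37 and -0.40 at 28 dpl. Taken as the mitotic minus the replication mean, the balance was 0.01, 0.14 and 0.07 at 5 dpl, 0.26, 0.22 and 0.40 at 14 dpl, and -0.32, -0.39 and -0.39 at 28 dpl. On this measure the mitotic genes stood highest against the replication genes at 14 dpl and lowest at 28 dpl, with no overlap between time points. It is a description of chosen lists, with no test.

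**Figure D4:**
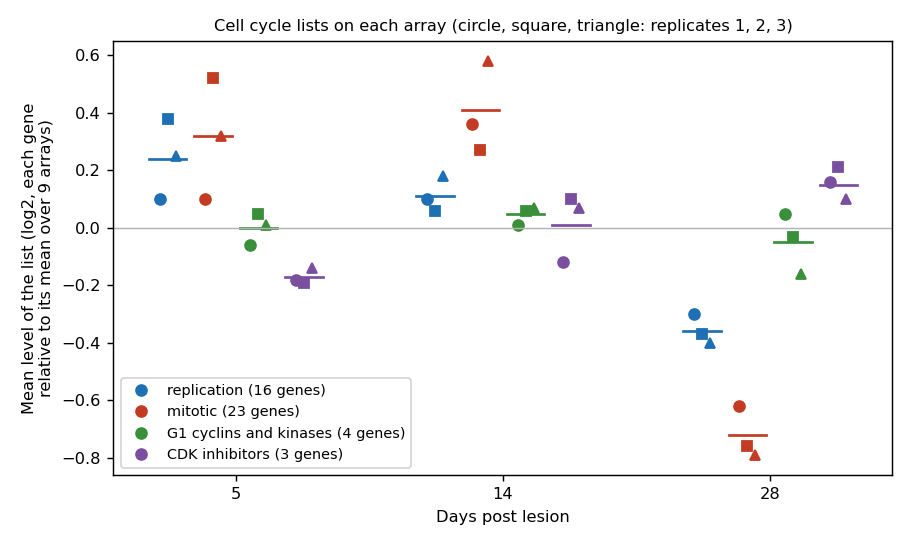
Mean level of each list on each array (log2, y axis, each gene relative to its own mean over 9 arrays) by days post lesion (x axis); points are arrays, with circle, square and triangle for replicates 1, 2 and 3, and bars are means of 3 arrays. The mitotic list lies between 0.10 and 0.58 at 5 and 14 dpl and between -0.79 and -0.62 at 28 dpl, and the replication list moves by less.

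Over the whole interval from 5 to 28 dpl all 23 measured mitotic genes and 14 of 16 replication genes fell and 0 rose, beside 24.1% of all probes that fell and 20.2% that rose. The medians were -1.14 and -0.47, against -0.03 for all probes. The largest falls were in Cks2 (-1.90, SE 0.15, 3.72-fold), Cdk1 (-1.83, SE 0.19, 3.55-fold) and Ccnb2 (-1.72, SE 0.20, 3.29-fold) among mitotic genes and in Rrm2 (-1.34, SE 0.18, 2.53-fold), Mcm6 (-1.27, SE 0.09, 2.41-fold) and Gins1 (-1.23, SE 0.13, 2.35-fold) among replication genes. Mcm7 (-0.19, SE 0.09, adjusted p = 0.115) and Rfc3 (-0.29, SE 0.13, adjusted p = 0.0956) did not pass, although Rfc3 did without 5 dpl replicate 1 (adjusted p = 0.0217). Mcm4, Pola1 and Kif2c passed with differences of -0.16, -0.17 and -0.20, from levels near the estimated background at 5 dpl to below it on every 28 dpl array, and each call ended in at least 10 of the 17 or 18 alternative settings that tested it. This comparison shares its arrays with the others and is no separate support for them.

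The G1 cyclins and their kinases did not move as a group. Ccnd1, cyclin D1, which carries growth signals into G1, read 11.46, 11.64 and 11.44 at 5 dpl, 11.85, 12.04 and 12.11 at 14 dpl, and 12.16, 12.14 and 11.82 at 28 dpl. Its 5 dpl arrays lay below all others, and those of 14 and 28 dpl overlapped. Ccnd1 rose from 5 to 14 dpl by 1.4-fold (a difference of 0.49, SE 0.11, adjusted p = 0.0141) and did not pass afterwards, with a difference of 0.04 (SE 0.11, adjusted p = 0.842). It was higher at 28 than at 5 dpl (0.53, SE 0.11, adjusted p = 0.00432), where the mitotic genes were lower. The early call ended without 5 dpl replicate 3 or 14 dpl replicate 2 or 3 (adjusted p of 0.0579 at most). Cdk4, the kinase that cyclin D1 activates, read 10.98, 10.99 and 11.07 at 5 dpl, 10.84, 10.84 and 10.86 at 14 dpl, and 10.41, 10.34 and 10.31 at 28 dpl. The time points were separate and descended, with a difference of -0.17 (SE 0.05, adjusted p = 0.0477) at the earlier step, a call that ended in 15 of 19 alternative settings (highest adjusted p = 0.149), and of -0.49 (SE 0.05, adjusted p = 0.00094) at the later one. Ccne1, cyclin E1, which acts at entry into S phase, read 7.44, 7.64 and 7.45 at 5 dpl, 7.32, 7.32 and 7.38 at 14 dpl, and 7.31, 7.28 and 7.20 at 28 dpl. Its values were near the estimated background and highest at 5 dpl without overlap. Ccne1 passed over the whole interval alone (-0.25, SE 0.07, adjusted p = 0.0174), a call that ended without 28 dpl replicate 3 (0.0614). Ccnd2, cyclin D2, read 7.26, 7.29 and 7.46 at 5 dpl, 7.43, 7.41 and 7.32 at 14 dpl, and 7.69, 7.50 and 7.39 at 28 dpl. Its arrays overlapped at neighbouring times, and it did not pass in any comparison, with differences of 0.05 and 0.14.

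Of the CDK inhibitors Cdkn1b, which encodes p27Kip1, a protein known to hold cells out of S phase, rose. It read 9.16, 9.14 and 9.12 at 5 dpl, 9.52, 10.15 and 9.97 at 14 dpl, and 10.36, 10.19 and 10.45 at 28 dpl. All 5 dpl arrays lay below all 14 dpl arrays, which lay below all 28 dpl arrays. The rise from 5 to 14 dpl was 1.67-fold (a difference of 0.74, SE 0.14, adjusted p = 0.00755), a call that held in all 19 alternative settings. From 14 to 28 dpl Cdkn1b did not pass (0.45, SE 0.14, adjusted p = 0.0684), and it did without 14 dpl replicate 2 (adjusted p = 0.0329). Over the whole interval the rise was 2.28-fold (1.19, SE 0.14, adjusted p = 0.000272). Cdkn1c, p57Kip2, read 7.93, 7.88 and 8.02 at 5 dpl, 7.63, 7.58 and 7.62 at 14 dpl, and 7.67, 8.09 and 7.41 at 28 dpl. All 14 dpl arrays lay below all 5 dpl arrays, and the 28 dpl arrays were widely spread, with replicate 2 high. It did not pass, with differences of -0.34 (SE 0.14, adjusted p = 0.139) and 0.11 (SE 0.14, adjusted p = 0.652). Without 28 dpl replicate 2 Cdkn1c passed from 5 to 14 dpl, with a limma adjusted p of 0.0193, and from 5 to 28 dpl, with one of 0.00755 and a difference of -0.41. It also passed from 5 to 14 dpl when only those arrays were fitted (limma adjusted p = 0.0116). Cdkn2c, p18Ink4c, read 7.46, 7.49 and 7.51 at 5 dpl, 7.55, 7.66 and 7.69 at 14 dpl, and 7.52, 7.43 and 7.53 at 28 dpl. It was highest at 14 dpl, without overlap with either neighbour, by small differences that did not pass (0.15, SE 0.06, adjusted p = 0.111 and -0.14, SE 0.06, adjusted p = 0.137).

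Other genes of the same pathways were counted in the same way. They were listed by function but with earlier results of these data known, so their counts are a description and no test. Of 44 measured further mitotic genes 30 fell and 0 rose from 14 to 28 dpl, beside 7.48% and 7.49% of all probes, with a median of -0.40. The largest falls were in Kifc1, a spindle motor (-1.43, SE 0.16), Nuf2, of the kinetochore (-1.39, SE 0.15), Ttk, a checkpoint kinase (-1.32, SE 0.09), and Pbk, a mitotic kinase (-1.31, SE 0.15). Of 35 further replication genes 6 (17.1%) fell and 0 rose, with a median of -0.21, led by Pole2, of DNA polymerase epsilon (-1.04, SE 0.08), Gmnn, geminin, which blocks a repeat of replication (-0.85, SE 0.13), Timeless, of the replication fork (-0.68, SE 0.10), and Pole (-0.42, SE 0.09). By limma at an unadjusted p under 0.05, 17 replication genes of this list were lower and 0 higher, without a share of all probes to set beside them.

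From 5 to 14 dpl, 2 of the 44 further mitotic genes fell (Dlgap5, -0.65, SE 0.10, and Cdc27, -0.26, SE 0.07) and 2 rose (Stmn1, a regulator of microtubules, 0.91, SE 0.21, and Ttk, 0.71, SE 0.09). Of the 35 further replication genes 2 fell, Dnmt1, the maintenance DNA methyltransferase (-0.54, SE 0.11), and Mcm10 (-0.25, SE 0.08), and 0 rose (1 at an unadjusted p under 0.05 by limma). These shares, 4.55% of the mitotic genes each way and 5.71% of the replication genes lower, lay below the 10.1% and 10.7% of all probes. From 5 to 28 dpl 35 further mitotic genes (79.5%, beside 24.1% of all probes) fell and 1 rose, Stmn1 (1.52, SE 0.21). The largest of these falls were in Dlgap5 (-1.84, SE 0.10), Kifc1 (-1.48, SE 0.16), Cenpk (-1.29, SE 0.13) and Nuf2 (-1.21, SE 0.15). Of the further replication genes 20 (57.1%) fell and 0 rose (1 at an unadjusted p under 0.05 by limma), led by Gmnn (-1.25, SE 0.13), Pole2 (-1.10, SE 0.08), Timeless (-0.99, SE 0.10) and Dnmt1 (-0.69, SE 0.11).

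Genes that control G1 and the entry into S phase went both ways, 21 of them measured. From 5 to 14 dpl 3 rose, the transcription factor Mycn at least 1.73-fold, the damage-response gene Gadd45a by a difference of 0.71 (SE 0.13) and Tfdp2, a partner of E2F, at least 1.23-fold, and Gadd45g fell (-0.56, SE 0.16). Between 14 and 28 dpl Tfdp1, another E2F partner (-0.66, SE 0.10), Myc (-0.38, SE 0.10) and cyclin E2 (Ccne2, at least 1.09-fold) fell, while Gadd45b (0.42, SE 0.10) and the antiproliferative gene Tob1 (0.25, SE 0.07) rose. At these steps 14.3% of the list rose and 4.76% fell early (10.7% and 10.1% of all probes) and 14.3% fell and 9.52% rose late (7.48% and 7.49%). Over the whole interval 9 fell (42.9%, beside 24.1%) and 5 rose (23.8%, beside 20.2%), so the rises lay near the background. The largest falls were in Tfdp1, Gadd45g, Myc and Mdm2, with differences of -0.64, -0.57, -0.34 and -0.32, and the largest rises in Gadd45a, by 1.91-fold, and in Mycn, Tfdp2 and Tob1, by at least 1.48-fold, 1.42-fold and 1.24-fold from below the estimated background.

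Markers of cell types moved over the same days. For the counts below, 10.1% of all probes fell and 10.7% rose from 5 to 14 dpl. From 14 to 28 dpl 7.48% fell and 7.49% rose. From 14 to 28 dpl 6 of 8 genes of microglia and macrophages fell and 0 rose, and the list's mean level lay between 0.47 and 0.58 at 5 dpl, between 0.00 and 0.22 at 14 dpl and between -0.84 and -0.37 at 28 dpl. All of these 8 genes were above the estimated background on every array. Between 5 and 14 dpl 2 of them fell, Adgre1 (-0.53, SE 0.10) and Cd14 (-1.96, SE 0.24). Of 5 genes listed under oligodendrocyte progenitors 3 rose (Cspg4, Olig1 and Sox10) and 1 fell (Vcan) from 5 to 14 dpl. Pdgfra did not pass (0.48, SE 0.16, limma adjusted p = 0.0635). Olig1 and Sox10 averaged highest at 28 dpl (13.92 and 11.91), as the myelin list did, so this list does not single out progenitors. Of these 5 genes 0 passed from 14 to 28 dpl (limma, with 2 higher and 0 lower at an unadjusted p under 0.05). Their mean level lay between -0.42 and -0.25 at 5 dpl, between -0.03 and 0.20 at 14 dpl and between 0.07 and 0.34 at 28 dpl. Of 5 T cell genes 2 fell from 5 to 14 dpl (Cd8a and Lck) and 0 passed from 14 to 28 dpl (limma, 0 at an unadjusted p under 0.05). Cd3d, Cd3e and Cd3g did not pass at the earlier step (limma adjusted p of 0.0888, 0.0899 and 0.0632). At 5 dpl these 3 averaged 8.40, 7.45 and 8.30, and Cd8a 11.55. The list's mean levels were 0.19 to 1.13, -0.33 to -0.11 and -0.48 to -0.21 at the 3 times, and Cd3e and Lck lay below the estimated background from 14 dpl on. Of 4 Schwann cell genes all rose from 5 to 14 dpl, with mean levels of -1.94 to -1.80 and then 0.29 to 1.11, and 0 passed from 14 to 28 dpl (limma, 1 higher at an unadjusted p under 0.05), with 0.80 to 1.36 at 28 dpl. Of 7 myelin genes 7 rose at the earlier step and 6 at the later one, and of 6 astrocyte genes 2 rose at each. Of 2 endothelial genes Vwf fell from 5 to 14 dpl, and the B cell gene Cd79b lay below the estimated background from 14 dpl on. Of 6 neuron genes 0 passed at either step (limma, with 2 higher and 0 lower at an unadjusted p under 0.05 from 14 to 28 dpl and 0 from 5 to 14 dpl). The counts at an unadjusted p have no share of all probes beside them. The part of any of these cell types in the fall of the division genes was not tested.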

How the data were processed

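The 9 Illumina bead arrays were deposited by the authors as raw signal intensity with a detection p-value for 22226 targets, and as a table of log2 values for 10552 probes. Per the file headers and values, the authors' log2 values had the same distribution on every array (sorted values differed by at most 0.0015), as after quantile normalization, with a column median of 8.31. The number of its rows equals that of targets with a detection p-value of 0.01 or less on any array in the raw table the authors deposited. The 2 tables share no identifiers, so members were read from the log2 table alone. The scanner and the software of these steps were not given in the sources used here. Raw median intensity was 79.6 to 94.1 and 39.3% to 42.0% of targets were detected. For the background, each raw array's undetected targets were counted among those detected on any array. That count was set on the sorted log2 values averaged over arrays, and the highest result, 7.3123, was used. The compression of the scale was read from sorted raw log2 intensities and sorted log2 values, both averaged over the arrays. The number of arrays limits the precision.

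Probes were named through the platform annotation supplied with the data (7679 with 1 symbol, 0 with several, 2873 unnamed). limma 3.58.1 in R 4.3.3 (lmFit and eBayes) was fitted to all probes with a mean per time point, without a block, with Benjamini-Hochberg adjustment over all probes. "At least" folds set the brighter mean against the dim group's mean of the higher of the background and its own value. Tested on simulated data for 28 against 14 dpl (10552 probes), the fit recovered 98% of 100 changes of 1 and 66% of 100 changes of 0.5 on the log2 scale, with 8 false calls. The simulated noise was independent between probes, whereas members moved together on the real arrays, so these figures need not hold for them. Fewer probes were changed than the 789 called lower and 790 called higher on the real arrays. The adjustment depends on that number, so the recovery there can differ.

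The members and all lists were chosen with earlier results of these data known. Values on all arrays were given for up to 6 members per role with the largest differences past the threshold between 14 and 28 dpl and for every G1 member and inhibitor, and members past the threshold between 5 and 14 dpl were named, as were up to 4 further pathway genes per direction. The alternatives were the replicate number as a block, only the arrays compared, each array left out, a variance trend, array weights, cyclic loess, scaling to the 75th percentile, the dimmest probe or the mean of probes of a gene, and filters on dim probes.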

Additional observations from a re-analysis of the deposited data

How the results depend on the processing

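Of 19 alternatives each member was tested in 17 to 19, since filters leave out dim probes, and no difference that had passed turned its direction. In every alternative that tested them, 27 of 34 member calls held from 14 to 28 dpl, 34 of 41 from 5 to 28 dpl, and 1 of 6 (Cdkn1b) from 5 to 14 dpl. Of the calls not made in the reported fit, 9, 4 and 2 passed in some setting for 14 against 5, 28 against 14 and 28 against 5 dpl. From 5 to 14 dpl, where 3 members fell and 3 rose, array weights gave 6 and 5, the fit of only the 2 time points compared gave 1 lower, and the fit with the replicate number as a block gave 0 lower. Of all probes 14.8% fell and 13.6% rose with array weights, 8.54% and 9.34% with only the 2 time points, and 8.11% and 8.42% with the block. Of the replication genes (2 lower, 0 higher) 5 were lower and 1 higher with array weights, 0 lower with only the 2 time points and 0 lower with the block. Of the mitotic genes (1 higher) 0 were higher with the block, and 2 with array weights, with cyclic loess and with either filter on dim probes. Of all probes tested 11.6% rose with cyclic loess, and 11.5% and 12.2% with the filters. Keeping only probes above background on all 9 arrays moved the mitotic median from 14 to 28 dpl to -1.48. From 5 to 28 dpl it left 25 of 31 members lower, with 9 replication and 15 mitotic genes and a replication median of -0.62. That filter kept 11 of 16 replication and 15 of 23 mitotic genes, so these counts and medians cover fewer genes than the reported ones. Of all probes kept, 27.7% fell from 5 to 28 dpl. With each array left out in turn, the counts from 5 to 14 dpl ranged from 0 to 7 lower and 1 to 6 higher for all members, 0 to 6 lower and 0 to 1 higher for replication, and 0 to 1 lower and 0 to 3 higher for mitosis. Over the same fits 5.85% to 12.8% of all probes fell and 6.33% to 11.6% rose. From 14 to 28 dpl replication genes that fell ranged from 7 to 12, and 0 to 1 members rose. Of all probes 3.69% to 9.17% fell and 4.19% to 10.3% rose in those fits. Replicate numbers did not pair the arrays (correlations of same-numbered arrays from -0.29 to 0.15), and with the block 31 members, 9 of them replication and 21 mitotic genes, fell from 14 to 28 dpl (the calls of Tyms, Mcm3 and Ect2 ended), and 35, 12 and 21 from 5 to 28 dpl. With the block 4.74% of all probes fell from 14 to 28 dpl and 21.8% from 5 to 28 dpl. The cause of these shifts was not tested. Dim genes, 4 replication and 7 mitotic members below background on all 28 dpl arrays, give only bounds.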

Other observations

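Of 617 named genes that fell from 14 to 28 dpl in limma's test, out of 7574, the 50 largest falls held 13 members, all mitotic, 10 further genes of the pathway lists and 27 genes of neither. Knstrn, a spindle gene on neither list, had a difference of -1.53 (SE 0.18, adjusted p = 0.00158), with values of 9.64, 10.15 and 9.79 at 5 dpl, 10.02, 9.76 and 10.07 at 14 dpl, and 8.60, 8.60 and 8.06 at 28 dpl. Its 28 dpl arrays lay below all others. Among the rest were receptors for antibodies, Fcgr2b (-1.42, SE 0.17), Fcgr3a (-1.39, SE 0.27) and Fcgr1a (-1.31, SE 0.21), the complement gene C1qc (-1.32, SE 0.22) and the microglial receptor P2ry12 (-1.30, SE 0.12). These genes were picked from the ranking after their values were seen. P2ry12 read 9.44, 9.62 and 9.61 at 5 dpl, 10.05, 9.88 and 9.72 at 14 dpl, and 8.57, 8.39 and 8.79 at 28 dpl, highest at 14 dpl and lowest at 28 dpl without overlap. Fcgr3a averaged 12.73, 11.66 and 10.28 at the 3 times and so stepped down at both intervals. Whether any of these falls came from the same cells as those of the division genes was not tested.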
